A study of Mus musculus and Rattus norvegicus with 12 samples.

Results

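The genes described here are the 10 that encode the transforming growth factor beta (TGF-beta) ligands, their receptors and the latent TGF-beta binding proteins: Tgfb1, Tgfb2 and Tgfb3, Tgfbr1, Tgfbr2 and Tgfbr3, and Ltbp1, Ltbp2, Ltbp3 and Ltbp4. They were taken by symbol, with case ignored, from 2 tables of RNA-seq counts, and all 10 were found among the 54087 symbols of the mouse table and the 28909 of the rat table. All 10 also passed the filter on low counts in both, which kept 18094 mouse and 15497 rat genes. The first comparison set cKO mice, which carry floxed Jmjd4 alleles and MCM, a tamoxifen-inducible Cre driven by the cardiomyocyte promoter of Myh6 (n = 3), against flox mice with the same floxed alleles and no Cre named in their labels (n = 3). Both groups received tamoxifen, and the heart apex was taken 14 days later. With no Cre named for the flox mice, Cre activity and loss of Jmjd4 cannot be told apart. The second set neonatal rat ventricular cardiomyocytes (NRVCs) of 1-day-old Sprague-Dawley rats labelled si-Jmjd4 (siJmjd4, n = 3) against NRVCs given the control siRNA si-NC (siNC, n = 3), both for 48 h. No source used here says whether the NRVC replicates came from separate isolations, so their p-values reflect the spread among these libraries alone, which may be technical. The labels name no age, sex or strain for the mice. Jmjd4 encodes a JmjC-domain oxygenase.

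TGF-beta is secreted in an inactive form, in which the mature dimer stays wrapped in its own propeptide. Most of these complexes are bound through a disulfide bridge to an LTBP, which anchors them to fibrillin microfibrils and fibronectin until integrins, proteases or thrombospondin release the ligand. The free ligand binds the type II receptor TGFBR2, which recruits and activates the type I receptor TGFBR1, and TGFBR1 phosphorylates SMAD2 and SMAD3. In the heart this pathway is best known for the conversion of fibroblasts into matrix-producing myofibroblasts.

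The libraries held 57174654 to 82187009 counts. In cKO hearts Jmjd4 had 8.95, 4.92 and 9.63 CPM (counts scaled by library size and TMM factor), against 19, 8.04 and 16.9 CPM in flox hearts, with overlap between the groups. In the NRVCs it had 3.58, 3.43 and 3.52 CPM in those labelled siJmjd4, against 3.46, 4.4 and 0.982 CPM in siNC libraries, so these counts show no lower Jmjd4 RNA in the labelled knockdown, and every NRVC direction below rests on the labels. One control library stood apart in each system. In flox replicate 3, mitochondrial genes took 41.7% of counts, against 14.2% to 24.1% in the other 5 heart libraries, and 1485 tested genes had no count, against 125 to 503. SiNC replicate 3 had 461 tested genes with no count, against 78 to 137 in the other 5 NRVC libraries. In both, the ratio to the other controls fell with transcript length, and 7 of the 10 genes have transcripts of over 4 kb. Results for the 10 genes and the gene lists are therefore given with and without that library.

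**Figure D1:**
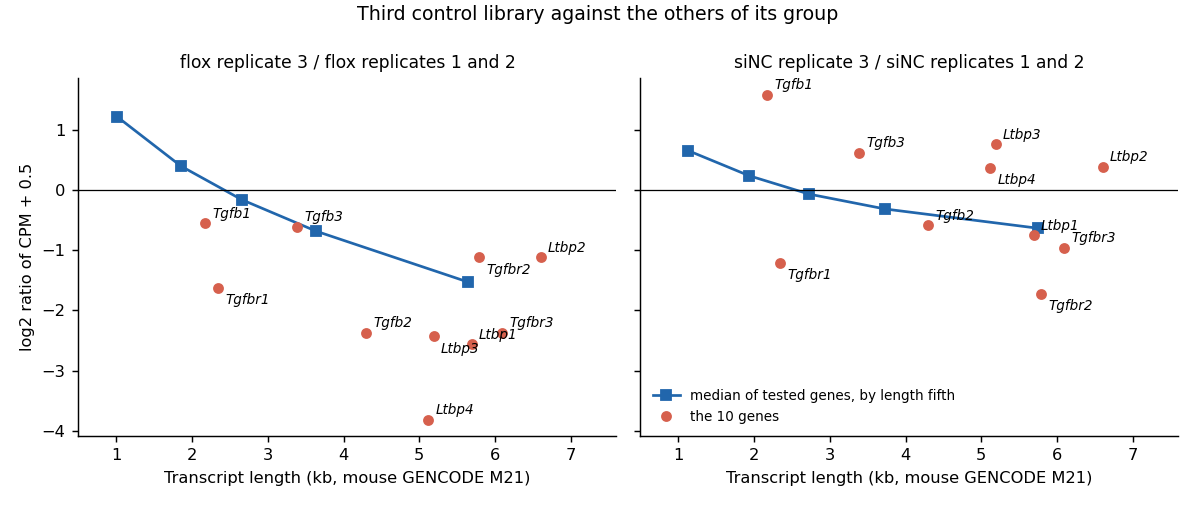
Log2 ratio of flox replicate 3 to flox replicates 1 and 2 (left) and of siNC replicate 3 to siNC replicates 1 and 2 (right), computed on CPM plus 0.5, against transcript length in kb. Squares are medians of tested genes in 5 classes by length and circles are the 10 genes. In the hearts all 10 genes lie below 0, with Ltbp4 the lowest at -3.81, and in the NRVCs they scatter between -1.73 for Tgfbr2 and 1.58 for Tgfb1.

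The 10 genes sat unevenly in that ratio. In flox replicate 3, the log2 ratio to the other flox libraries was -3.81 for Ltbp4, -2.56 for Ltbp1 and -0.55 for Tgfb1, while the median of the longest of 5 equal classes of tested genes was -1.53 and that of the shortest was 1.22. In siNC replicate 3, Tgfb1 stood at 1.58 and Tgfbr2 at -1.73, against medians of -0.63 in the longest class and 0.65 in the shortest. The long genes did not all follow these medians. Ltbp2 (0.39), Ltbp3 (0.76) and Ltbp4 (0.36) lay above 0, and Tgfb2 (-0.59), Tgfbr3 (-0.96) and Ltbp1 (-0.75) below. Among the cKO libraries, replicate 2 showed a weaker trend of the same kind against the other cKO libraries. Its class medians were 0.47 in the shortest and -0.57 in the longest class, and Ltbp2 stood at -1.82. It had 503 tested genes with no count, against 127 and 125 in cKO replicates 1 and 3. The lengths are those of mouse transcripts in both systems.

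All 3 ligand genes had higher values in every cKO heart library than in any flox heart library. In edgeR's quasi-likelihood test, adjusted by Benjamini-Hochberg over all genes, Tgfb3 passed, and Tgfb2 passed when flox replicate 3 was left out. Called genes made up 0.508% of all 18094 tested (0.37% higher and 0.138% lower), and 14.9% of tested genes lay higher in every cKO library than in any flox library.

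Tgfb3 encodes the ligand isoform known in mice for palate fusion and is also made by cardiac fibroblasts. It was at 75, 74.7 and 111 CPM in cKO hearts, against 18.2, 18.1 and 11.7 CPM in flox hearts. Every cKO library lay well above every flox library, at 5.43-fold in the fit (log2 fold change 2.44, SE 0.36, edgeR adjusted p = 0.04899, and 2.26 with adjusted p = 0.008921 without flox replicate 3). The gene lies on mouse chromosome 12 from 86056745 to 86079041 of GRCm38, minus strand, and 5149 bases of its span are overlapped on the other strand by Ttll5. No source used here says whether counting used strand. Ttll5 held 4885 counts over the 6 heart libraries, with a log2 fold change of 0.80 (edgeR adjusted p = 0.2704).

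Tgfb2 encodes the isoform required in mice for heart septation and valve formation, which needs the co-receptor betaglycan for efficient binding. It was at 45.2, 36.8 and 45.1 CPM in cKO hearts, against 8.87, 8.99 and 1.33 CPM in flox hearts. The cKO libraries were close together, and the flox group was split by replicate 3. The log2 fold change was 2.72 with a wide error (SE 0.69, edgeR adjusted p = 0.1356). Without flox replicate 3 it was 2.25 (SE 0.21, adjusted p = 0.005242).

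Tgfb1, the isoform most often tied to fibrosis, had the smallest fold change of the ligands. It was at 35, 47.2 and 46.3 CPM in cKO hearts, against 24.8, 23.5 and 16.3 CPM in flox hearts. The groups did not overlap, and the log2 fold change was 0.99 (SE 0.31, edgeR adjusted p = 0.206), or 0.83 (adjusted p = 0.06419) without flox replicate 3. DESeq2's Wald test called Tgfb1 on all 6 libraries (adjusted p = 0.02842), a test that called 4 of the 10 higher (Tgfb1, Tgfb2, Tgfb3 and Ltbp2) and 0 lower, beside 9.66% of all tested genes, with 5.29% higher and 4.37% lower.

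**Figure D2:**
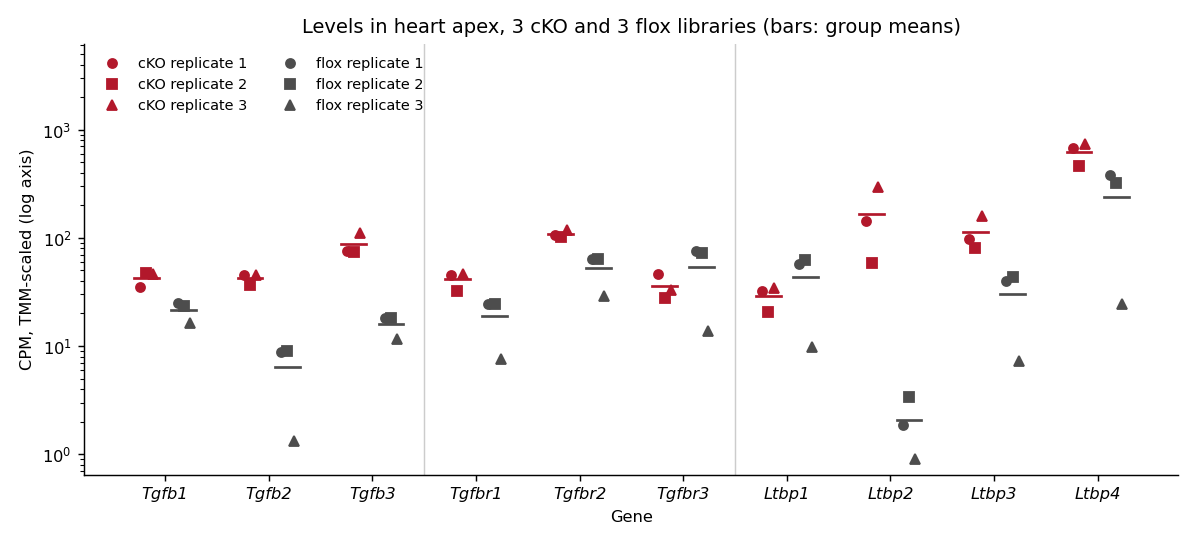
TMM-scaled CPM (log axis) of the 10 genes in each heart library, with cKO at the left of each pair and flox at the right. Points are libraries, marked by replicate, and bars are group means (n = 3 each). Ltbp2 shows the widest gap, at 58 to 294 CPM in cKO and 0.903 to 3.41 CPM in flox hearts, and flox replicate 3 is the lowest library for all 10 genes.

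None of the 3 receptor genes passed edgeR's test in the hearts, and they did not all lie on one side. With all libraries 1 of the 3 had an unadjusted p below 0.05, as had 15% of all tested genes, and without flox replicate 3 all 3 had one, beside 23.1% of all genes. Tgfbr1, the type I serine-threonine kinase receptor also called ALK5, was at 45.3, 32.3 and 46.1 CPM in cKO hearts, against 24.4, 24.4 and 7.57 CPM in flox hearts (log2 fold change 1.13, SE 0.49, edgeR adjusted p = 0.3436). Tgfbr2, the type II receptor that binds the ligand first, was at 106, 102 and 117 CPM in cKO hearts, against 63.7, 64.3 and 29.2 CPM in flox hearts (1.05, SE 0.39, adjusted p = 0.2735). Both genes lay higher in every cKO library. Without flox replicate 3 their log2 fold changes were 0.76 and 0.76, with adjusted p-values of 0.09928 and 0.06341.

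Tgfbr3 encodes betaglycan, the co-receptor that presents TGF-beta2 and, when shed, binds ligand away from the signalling receptors. It was at 45.9, 27.6 and 33.3 CPM in cKO hearts, against 74.9, 72.6 and 13.9 CPM in flox hearts. Flox replicates 1 and 2 lay above every cKO library and flox replicate 3 below, so the groups overlapped and the log2 fold change was -0.60 (SE 0.62, edgeR adjusted p = 0.7329). Without flox replicate 3 it was -1.04 (SE 0.26, adjusted p = 0.05772), still short of the threshold. Without that library, 22.9% of tested genes lay lower in every cKO library and 23.6% higher.

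Of the latent binding proteins, Ltbp2 passed the test in cKO hearts, and Ltbp3 passed when flox replicate 3 was left out. Ltbp1 had a lower mean in cKO hearts, with overlap. LTBP1 and LTBP3 bind all 3 latent TGF-beta isoforms, LTBP4 binds latent TGF-beta1 only weakly, and LTBP2 does not bind them at all and is a microfibril protein that takes part in elastic fibre assembly.

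Ltbp2 was at 144, 58 and 294 CPM in cKO hearts, against 1.88, 3.41 and 0.903 CPM in flox hearts. In counts this was 13683, 4562 and 26333 in cKO libraries and 148, 263 and 32 in flox libraries. The lowest cKO library lay far above the highest flox library, although the SD among cKO libraries, relative to their mean, was larger than for any other of the 10 genes (165.3 ± 119.6 CPM in cKO and 2.066 ± 1.264 CPM in flox, SD, n = 3 each). The difference was 79.5-fold (log2 fold change 6.31, SE 0.87, edgeR adjusted p = 0.04557) and 62.3-fold without flox replicate 3 (adjusted p = 0.01226). Ltbp2 lies on chromosome 12 from 84783212 to 84876532, minus strand, 1.18 Mb from Tgfb3, the other gene of the 10 that was called. Ltbp4 and Tgfb1 are likewise 1.6 Mb apart on chromosome 7.

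Promoter windows of the mouse genes with the largest fold changes are shown to give the sequence around their starts. They run 250 bases before to 50 bases after the start in RefSeq's GRCm38.p6, at chr12:84876442-84876741 for Ltbp2 and chr1:186705940-186706239 for Tgfb2, both on the minus strand and written 5′ to 3′. Capitals mark CAGAC, letters of the SMAD-binding element, or the same letters on the other strand, GTCTG.
Ltbp2: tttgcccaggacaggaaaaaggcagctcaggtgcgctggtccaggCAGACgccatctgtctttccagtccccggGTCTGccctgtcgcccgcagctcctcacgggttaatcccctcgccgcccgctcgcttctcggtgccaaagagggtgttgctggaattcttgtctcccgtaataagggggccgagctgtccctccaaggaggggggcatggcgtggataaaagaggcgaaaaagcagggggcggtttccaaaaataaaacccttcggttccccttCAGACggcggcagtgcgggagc
Tgfb2: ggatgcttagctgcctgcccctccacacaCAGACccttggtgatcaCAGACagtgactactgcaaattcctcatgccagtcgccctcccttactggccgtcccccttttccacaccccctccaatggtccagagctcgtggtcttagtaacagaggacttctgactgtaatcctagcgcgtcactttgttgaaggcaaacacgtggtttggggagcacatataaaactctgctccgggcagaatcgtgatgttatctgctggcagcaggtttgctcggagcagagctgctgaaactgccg
The Ltbp2 window held 3 matches and the Tgfb2 window 2. A window of Ltbp1, which had a lower mean in cKO hearts, and that of Ltbp3 also held 2 each. Of all 32851 windows in the table, 49.6% held at least 1 match and 16.2% held 2 or more. Windows were found for 8 of the 10 genes, 12 windows in all, and 7 of the 12 held a match. None was found for Tgfbr3 or for Tgfb3, which was called with all libraries, as Tgfb2 was not. Those of Tgfb1 and Ltbp4 held none, which says only that these letters are not in those windows.

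Ltbp3 was at 98.3, 80.1 and 160 CPM in cKO hearts, against 39.9, 43.9 and 7.34 CPM in flox hearts. The groups did not overlap, with a log2 fold change of 1.89 (SE 0.68, edgeR adjusted p = 0.2627), and of 1.43 (SE 0.33, adjusted p = 0.04779) without flox replicate 3. Ltbp4, whose loss in mice and people disturbs elastic fibres, was at 674, 463 and 738 CPM in cKO hearts, against 380, 318 and 24.3 CPM in flox hearts. For Ltbp4 the fit gave 1.38 (SE 0.88, edgeR adjusted p = 0.5366) on the log2 scale, or 0.84 (adjusted p = 0.1269) without flox replicate 3, a library with 860 Ltbp4 counts beside 29870 and 24549 in the other flox libraries.

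Ltbp1 was at 32.4, 20.6 and 34.2 CPM in cKO hearts, against 57.7, 62.9 and 9.8 CPM in flox hearts. As with Tgfbr3, flox replicates 1 and 2 lay above every cKO library and flox replicate 3 below. The fitted log2 difference was -0.58 (SE 0.66, edgeR adjusted p = 0.757), and -1.05 (SE 0.26, adjusted p = 0.05728) without flox replicate 3. When flox replicate 3 was left out and each library's trend with transcript length was also removed, a setting chosen after seeing the data, both Ltbp1 (-0.92, adjusted p = 0.006833) and Tgfbr3 (-0.88, adjusted p = 0.01389) were called lower. In that fit 18.1% of all tested genes were called, 9.45% higher and 8.65% lower.

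**Figure D3:**
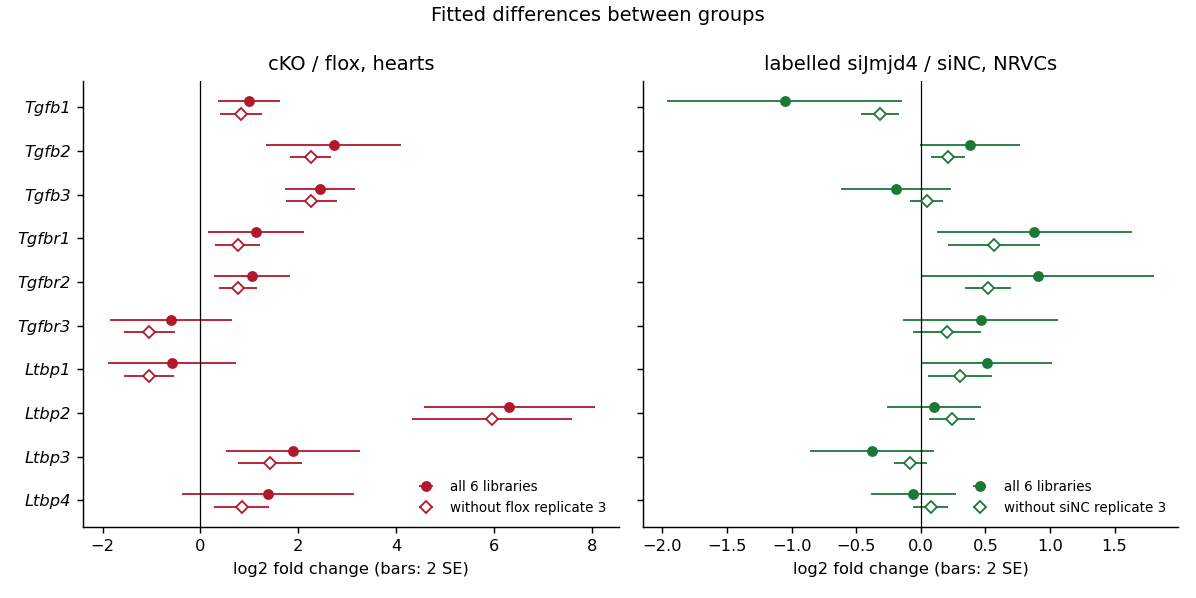
Fitted log2 fold changes of the 10 genes, cKO over flox hearts (left) and NRVCs labelled siJmjd4 over siNC (right, on its own scale). Filled circles use all 6 libraries, open diamonds leave out flox replicate 3 or siNC replicate 3, and bars are 2 SE. In the hearts Ltbp2 stands at 6.31 and Tgfbr3 and Ltbp1 lie below 0, while the NRVC estimates lie between -1.05 and 0.91.

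Over the 10 genes, 2 were called higher and 0 lower in cKO hearts, with a median log2 fold change of 1.25 beside 3e-04 over all 18094 genes. Without flox replicate 3, 4 were called higher, namely Tgfb2, Tgfb3, Ltbp2 and Ltbp3, and 0 lower, with a median of 0.84 beside 0.02 over all genes. In that fit 7.19% of all tested genes were called, 4.26% higher and 2.93% lower. When any other single heart library was left out, edgeR called 0 of the 10 and 0 of all genes, while 1657 to 2587 genes had an unadjusted p below 0.05. With scaling to total counts alone, 0 of the 10 were called. The direction of each of the 10 genes was the same in all 6 fits with 1 library left out. For genes whose groups did not overlap, leaving out 1 library could hardly turn it. The log2 fold changes of the genes with overlap ranged between -1.04 and -0.27 for Tgfbr3 and between -1.05 and -0.22 for Ltbp1.

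These are levels in bulk heart apex, although the labels give the cell type as cardiomyocytes, and in bulk tissue fewer cells of a type and less RNA per cell cannot be told apart. Marker levels of other cell types also differed between the groups. The summed CPM of 8 fibroblast markers, which include collagens and Postn, was 3217, 2596 and 6408 in cKO hearts, against 1062, 1159 and 906.8 in flox hearts, with 0 of 8 called by edgeR (5 at an unadjusted p below 0.05, beside 15% of all genes), and 3 of 8 called higher without flox replicate 3 (Postn, Lum and Tcf21). Tcf21, a defining fibroblast factor, averaged 23 CPM in cKO and 10.28 CPM in flox hearts. With all libraries, 7 of the 8 had a fitted value above 0 and 1, Dpt, below. Dpt averaged 82.19 CPM in cKO and 98.29 CPM in flox hearts, and both Dpt and Pdgfra overlapped between the groups. The summed CPM of 8 cardiomyocyte markers was 32410 to 35010 in cKO and 45710 to 67360 in flox hearts, with 0 of 8 called, or Myh7 higher and Pln and Mb lower without flox replicate 3. Macrophage markers summed to 819.3 to 1160 CPM in cKO and 393.4 to 841.9 CPM in flox hearts, with 0 of 7 called, and 5 of 7 called higher without flox replicate 3. The fit without flox replicate 3 called 4.26% of all genes higher and 2.93% lower, against 0.37% and 0.138% with all libraries. Of the endothelial, lymphocyte and epicardial lists 0 markers were called (Msln, an epicardial marker, without flox replicate 3), and of the smooth muscle list 1, Cnn1, higher in cKO hearts. No marker of any list was at 0 in either heart group, and the part of these cell types in the results was not tested.

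Levels can be compared between genes per kb of transcript. In cKO hearts Ltbp4 had the highest mean, at 122 ± 28.1 CPM per kb (SD, n = 3), and did not overlap the next gene. Tgfb3 (25.8 ± 6.26), Ltbp2 (25 ± 18.1), Ltbp3 (21.7 ± 8.07), Tgfb1, Tgfbr2 and Tgfbr1 (17.6 ± 3.3 CPM per kb) followed, each overlapping its neighbour. Tgfb2 (9.85 ± 1.13), Tgfbr3 (5.85 ± 1.54) and Ltbp1 (5.11 ± 1.3 CPM per kb) were the lowest in cKO hearts, the last pair overlapping. In flox hearts Ltbp4 was also first, at 47.1 ± 37.2 CPM per kb, and Ltbp2 was last, at 0.313 ± 0.192 CPM per kb. Each gene's range overlapped that of the next in order apart from Tgfb3 and Tgfb2. The overlap of Ltbp4 with the next gene, Tgfb1, came with flox replicate 3 alone. Ltbp4 was at 74.3, 62.2 and 4.74 CPM per kb in flox replicates 1, 2 and 3, and Tgfb1 at 11.4, 10.8 and 7.5. The order below Ltbp4 also depended on that library, with Tgfbr3 at 12.3, 11.9 and 2.28 CPM per kb.

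The make-up of the ligand and LTBP families, given as a description, was as follows. Among ligand counts per kb, Tgfb3 made up 42.2% to 50.9% in cKO hearts and 28.5% to 30.7% in flox hearts. Tgfb1 made up 32.9% to 41.5% in cKO hearts and 59.2% to 66.5% in flox hearts. Tgfb1 was thus the most abundant ligand RNA in each flox library and Tgfb3 in each cKO library. Among the LTBPs, Ltbp2 made up 7.42% to 19.8% in cKO hearts and 0.309% to 1.71% in flox hearts, and Ltbp1 2.67% to 3.2% in cKO hearts and 11% to 21.5% in flox hearts. Ltbp4 held 63.9% to 76.5% in cKO and 59.2% to 80.4% in flox hearts, with overlap. These shares need no scaling between libraries. Flox replicate 3, the library with the length trend, had the lowest Tgfb2 share at 2.74% and the highest Ltbp1 share at 21.5%.

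**Figure D4:**
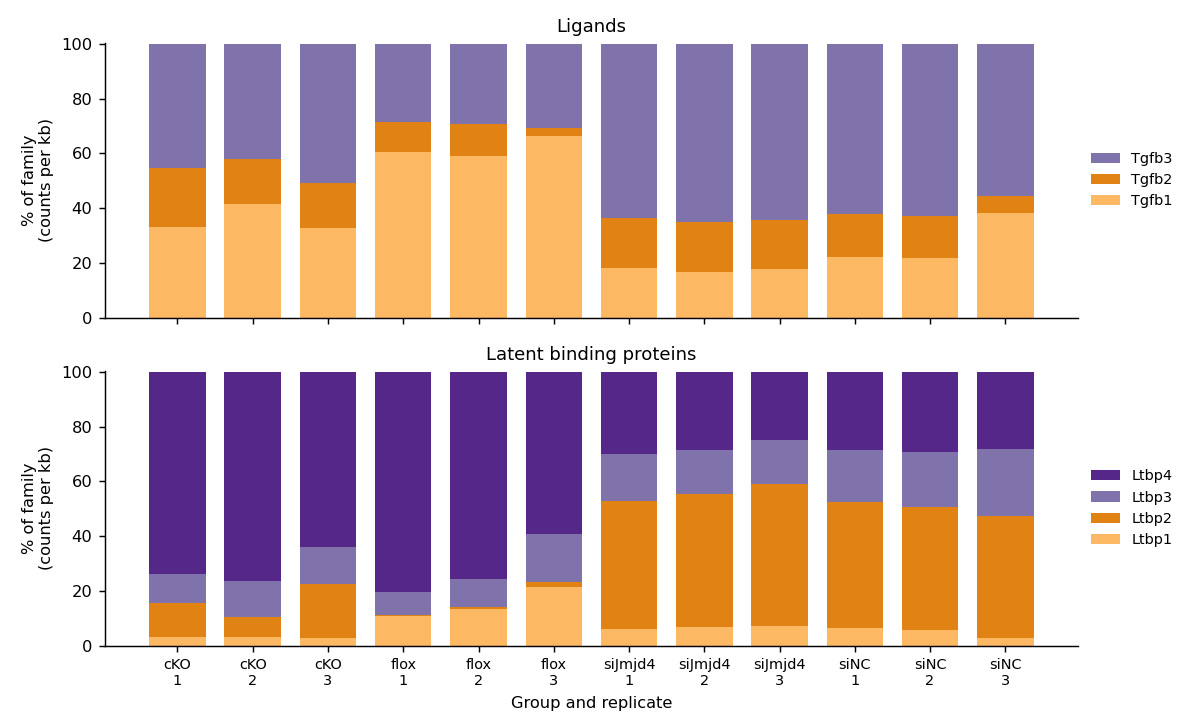
Share of each gene in the summed counts per kb of its family, for ligands (top) and latent binding proteins (bottom), in each of the 12 libraries, with lengths of mouse transcripts. Tgfb3 is the largest ligand share in the cKO hearts and all NRVC libraries and Tgfb1 in the flox hearts, and Ltbp2 is 44.9% to 51.7% of the LTBP total in NRVCs but under 2% in flox hearts.

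The genes whose profile was most like that of the 2 called genes were found by the root mean square difference of mean-centred log2 CPM over the 6 heart libraries, among 12218 candidates. Their differences between cKO and flox hearts therefore follow from how they were chosen and are no separate result. Of those named, edgeR called Lhfpl2 (adjusted p = 0.04001). Star, Fstl1, Cthrc1, Postn and Col12a1 were not called (adjusted p = 0.06085 to 0.1208). For Tgfb3 they were Star (0.118), Fstl1 (0.143) and Lhfpl2 (0.161). Star averaged 14.64 ± 3.593 CPM in cKO and 2.345 ± 0.9403 CPM in flox hearts (SD, n = 3). Lhfpl2 averaged 31.94 ± 11.46 CPM in cKO and 4.787 ± 0.6826 CPM in flox hearts. Fstl1, a secreted glycoprotein, averaged 694.6 ± 294.4 CPM in cKO and 123.6 ± 31.83 CPM in flox hearts. For Ltbp2 the nearest were farther off, namely Cthrc1 (0.618), Postn (0.62) and Col12a1 (0.647). Cthrc1, a secreted protein of activated fibroblasts, averaged 33.69 ± 31.68 CPM in cKO and 0.4431 ± 0.4923 CPM in flox hearts, and Postn, the matricellular protein periostin, 1272 ± 1028 CPM in cKO and 41.11 ± 19.44 CPM in flox hearts.

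The 4 lists of other genes of the pathway are given beside the 10. For comparison with each list in the hearts, edgeR called 0.508% of all genes with all libraries. Without flox replicate 3 it called 7.19% of all genes. Of 21 textbook TGF-beta targets tested, 4 were called higher and 0 lower in cKO hearts, with a median log2 fold change of 2.46. Of the 21, 18 had higher fitted values. The 3 with lower ones were Acta2 (-1.30, lower in every cKO library, edgeR adjusted p = 0.2205), Id1 (-0.40) and Cdkn1a (-0.24). Without flox replicate 3, Acta2 alone lay below 0 (-1.08). The median was 2.08 without flox replicate 3. The called genes were Nox4, a hydrogen peroxide-producing oxidase (15.45 ± 2.407 CPM in cKO, 0.657 ± 0.1359 CPM in flox, log2 fold change 4.56, edgeR adjusted p = 0.02551), Ctgf, a matricellular protein (4.55, adjusted p = 0.02551), Comp, a cartilage matrix protein (5.98, adjusted p = 0.03877), and Lox, the collagen cross-linking enzyme (5.08, adjusted p = 0.04023). Without flox replicate 3, 8 of the 21 were called, beside the 7.19% of all genes, with Postn, Snai1 and Timp1 among those added. The list shares Postn and collagens with the fibroblast markers given above.

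Of 10 co-receptors, pseudoreceptors and ligand-binding proteins, 2 were called higher and 0 lower in cKO hearts, with a median of 0.73, or 0.93 without flox replicate 3, where 3 were called. Bgn, the proteoglycan biglycan, which binds TGF-beta, was at 1273 ± 329.2 CPM in cKO and 157 ± 26.15 CPM in flox hearts (SD, n = 3, log2 fold change 3.02, edgeR adjusted p = 0.0414). Aspn, the proteoglycan asporin, which also binds TGF-beta, was at 134.5 ± 22.83 CPM in cKO and 30.62 ± 3.476 CPM in flox hearts (2.13, adjusted p = 0.04899). Fmod, fibromodulin of the same proteoglycan family, had a log2 fold change of 3.22 (adjusted p = 0.05099) and was called without flox replicate 3. Cd109, a membrane protein that binds TGF-beta, had one of 1.41 (adjusted p = 0.3468).

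Of 20 genes for storage and activation of latent TGF-beta, 0 were called in cKO hearts by edgeR with all libraries, while 7 had an unadjusted p below 0.05, beside 15% of all genes. The median was 1.23, or 0.78 without flox replicate 3. The smallest p-values belonged to Itgb5, an integrin subunit (295.1 ± 42.51 CPM in cKO, 105.4 ± 7.201 CPM in flox, log2 fold change 1.49, edgeR adjusted p = 0.1014), Thbs1, the activator thrombospondin 1 (3.13, adjusted p = 0.1493), Mmp2, a gelatinase (1.67, adjusted p = 0.1657), and Itgb8, the beta subunit of an activating integrin (1.68, adjusted p = 0.1688). Itgb5, Thbs1 and Mmp2 were called higher without flox replicate 3. Of 18 Smads and Smad regulators, 0 were called, while 3 had an unadjusted p below 0.05, a share near the 15% of all genes. The median of 0.30, with 14 of 18 genes above 0, was 0.01 without flox replicate 3, with 9 of 18 above 0. Pmepa1, a feedback inhibitor that binds SMADs, had a log2 fold change of 2.02 (adjusted p = 0.06085) and Tgif1, a SMAD corepressor, was 2.82-fold higher (adjusted p = 0.1163), and both were called without flox replicate 3. The inhibitory Smads stood at 1.26 for Smad6 (adjusted p = 0.2547) and 1.10 for Smad7 (adjusted p = 0.3998).

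In the NRVCs, 0 of the 10 genes were called by edgeR between the libraries labelled siJmjd4 and siNC, and 0 had an unadjusted p below 0.05. Over all 15497 genes 1 was called, or 0.00645%, and 1350 had an unadjusted p below 0.05, or 8.71%. Without siNC replicate 3 that count was 6 of the 10, beside 23.9% of all genes. By DESeq2's Wald test 0 of the 10 were called as well, beside 1.08% of all genes. Tgfb1 and Ltbp3 lay lower in every library labelled siJmjd4, as did 17.8% of tested genes, and Tgfb2, Tgfbr1 and Tgfbr2 higher, as did 22.4%. For Ltbp3 the gap was below the rounding, with 291 CPM in both siJmjd4 replicate 3 and siNC replicate 1. The median log2 fold change of the 10 was 0.24, beside 0.01 over all genes.

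**Figure D5:**
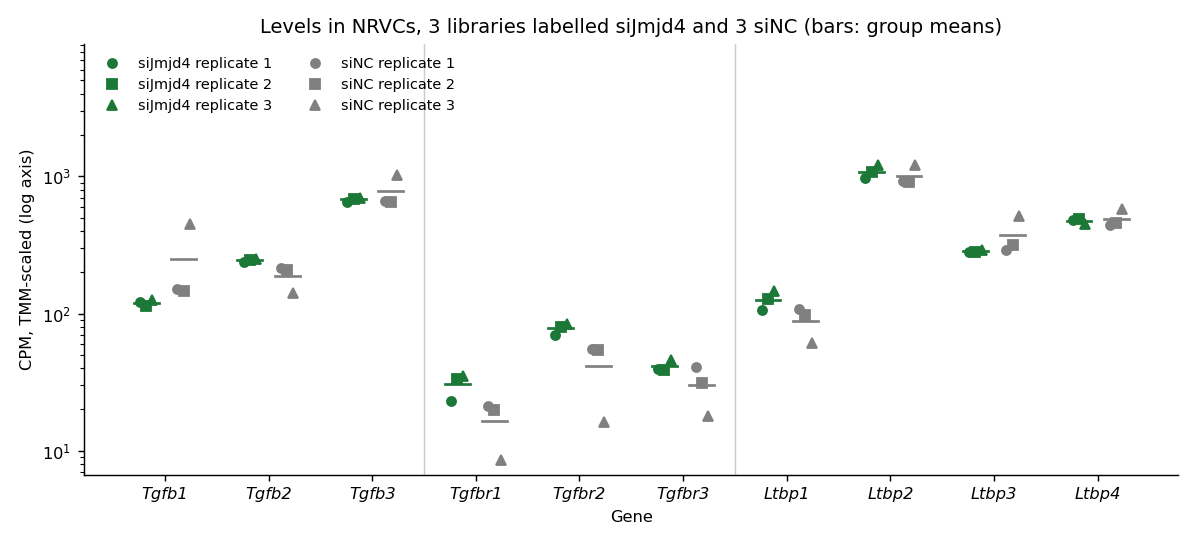
TMM-scaled CPM (log axis) of the 10 genes in each NRVC library, with those labelled siJmjd4 at the left of each pair and siNC at the right. Points are libraries, marked by replicate, and bars are group means (n = 3 each). SiNC replicate 3 is the highest library for Tgfb1, at 447 CPM, and the lowest for Tgfbr2, at 16.1 CPM.

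Among the ligands, Tgfb1 was at 121, 113 and 125 CPM in NRVCs labelled siJmjd4, against 152, 145 and 447 CPM in siNC. All values labelled siJmjd4 were lower, but the size came mostly with siNC replicate 3, with a log2 fold change of -1.05 (SE 0.46, edgeR adjusted p = 0.379) and of -0.31 (SE 0.07, adjusted p = 0.06557) without it. Tgfb2 was at 237, 247 and 249 CPM in NRVCs labelled siJmjd4, against 215, 208 and 141 CPM in siNC (0.38, SE 0.19, adjusted p = 0.379, or 0.21 with adjusted p = 0.1023 without siNC replicate 3). Tgfb3, the ligand with the highest level per kb, was at 655, 689 and 700 CPM in NRVCs labelled siJmjd4, against 666, 655 and 1020 CPM in siNC, with overlap (-0.19, SE 0.21, adjusted p = 0.5713, and 0.05 without siNC replicate 3).

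Among the receptors, Tgfbr2 was at 70.3, 80.1 and 84.5 CPM in NRVCs labelled siJmjd4, against 55.2, 53.8 and 16.1 CPM in siNC. The groups did not overlap, and the log2 fold change was 0.91 (SE 0.45, edgeR adjusted p = 0.379). It was 0.52 (SE 0.09, adjusted p = 0.04907) without siNC replicate 3. In that fit Tgfbr2 alone of the 10 was called, beside 0.57% of all genes (0.487% higher and 0.0823% lower), and 24.5% of genes lay higher and 20.4% lower in every library labelled siJmjd4. With the trend with length removed as well, it was 0.26 (adjusted p = 0.06831) and not called. Tgfbr1 was at 22.9, 33.1 and 35.2 CPM in NRVCs labelled siJmjd4, against 21.3, 19.7 and 8.55 CPM in siNC (0.88, SE 0.38, adjusted p = 0.379). Tgfbr3 was at 39.2, 38.9 and 45.9 CPM in NRVCs labelled siJmjd4, against 40.5, 31.3 and 18 CPM in siNC, with overlap (0.46, SE 0.30, adjusted p = 0.3954). Without siNC replicate 3, Tgfbr1 was at 0.57 (adjusted p = 0.1125) and Tgfbr3 at 0.20 (adjusted p = 0.383).

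Among the latent binding proteins, Ltbp2 was abundant in both NRVC groups, at 971, 1070 and 1200 CPM in those labelled siJmjd4, against 922, 906 and 1200 CPM in siNC. The ranges overlapped, and the log2 fold change was 0.10 (SE 0.18, edgeR adjusted p = 0.7319), with 2 SE on either side reaching -0.26 and 0.47. With the length trend removed it was -0.63, outside those limits and in the other direction. For Ltbp2, siNC replicate 3 ran against that trend. Its log2 ratio to the other siNC libraries was 0.39, against a median of -0.63 in the longest class. With that library left out as well, the Ltbp2 value was far smaller in size and is given further below. Ltbp1 was at 106, 128 and 145 CPM in NRVCs labelled siJmjd4, against 107, 98.1 and 60.9 CPM in siNC (0.51, SE 0.25, adjusted p = 0.379). Ltbp3 was at 283, 283 and 291 CPM in NRVCs labelled siJmjd4, against 291, 314 and 511 CPM in siNC, and Ltbp4 at 481, 486 and 450 CPM in those labelled siJmjd4, against 440, 456 and 577 CPM in siNC. Neither Ltbp3 (-0.38, adjusted p = 0.3906) nor Ltbp4 (-0.06, adjusted p = 0.8387) was called. Without siNC replicate 3 the log2 fold changes were 0.30 for Ltbp1, 0.24 for Ltbp2, -0.080 for Ltbp3 and 0.077 for Ltbp4, none of them called.

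Per kb of mouse transcript, Tgfb3 was first in both NRVC groups, at 202 ± 6.81 CPM per kb in those labelled siJmjd4 and 230 ± 60.4 in siNC (SD, n = 3), and Ltbp2 second, at 164 ± 17.5 CPM per kb in those labelled siJmjd4 and 153 ± 24.6 in siNC. In siNC, Ltbp2 overlapped the next gene, Tgfb1, at 114 ± 78.9 CPM per kb. That overlap came with siNC replicate 3 alone, where Tgfb1 was at 205 CPM per kb, against 69.9 and 66.9 in siNC replicates 1 and 2. The receptors were the lowest, with Tgfbr3 at 6.79 ± 0.65 CPM per kb in NRVCs labelled siJmjd4 and 4.92 ± 1.86 in siNC. Tgfb3 made up 63.6% to 65% of ligand counts per kb in NRVCs labelled siJmjd4 and 55.8% to 62.7% in siNC. Ltbp2 made up 46.8% to 51.7% of the LTBP total in those labelled siJmjd4 and 44.9% to 46.4% in siNC. The 8 fibroblast markers summed to 35580 to 40800 CPM in NRVCs labelled siJmjd4 and 30200 to 36430 CPM in siNC, above the 8 cardiomyocyte markers, at 14900 to 18140 CPM in those labelled siJmjd4 and 18510 to 26450 CPM in siNC. In none of the marker lists tested was a gene called in the NRVCs, in a fit that called 1 of all 15497 genes. The cultures are labelled cardiomyocytes, and the part of fibroblasts in these levels was not tested.

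For the other pathway genes in the NRVCs, the fit with all 6 libraries called 1 of all 15497 genes. A list without a called gene therefore says little about the pathway. None of the 4 lists held a called gene in edgeR's test with all 6 libraries, and 1, 3, 0 and 3 genes had an unadjusted p below 0.05 among Smads and their regulators, storage and activation genes, co-receptors and binding proteins, and targets. These were out of 18, 20, 10 and 21 genes tested, beside 8.71% of all genes. The list medians were 0.37, 0.08, -0.11 and 0.06 in that order of lists, and 0.22, 0.0063, -0.10 and 0.052 without siNC replicate 3. Itgb8 had the smallest p of all 4 lists, at 5.834 ± 2.168 CPM in NRVCs labelled siJmjd4 and 1.292 ± 0.4196 CPM in siNC (SD, n = 3, log2 fold change 2.17, edgeR adjusted p = 0.379). Lox stood at 395 ± 64.57 CPM in those labelled siJmjd4 and 238.8 ± 52.32 CPM in siNC (0.73, adjusted p = 0.379). The other genes taken by the rule were Itgav, an integrin subunit (1.27), Trim33, a ubiquitin ligase of SMAD4 (1.36), Tab1, a TAK1 partner (-0.44), Snai1, a transcription factor (-0.53), Bgn (-0.44) and Cd109 (0.31), none of them called. Without siNC replicate 3, Fbn2, the microfibril protein fibrillin 2, was the 1 gene of the lists to be called (0.78, adjusted p = 0.04898), beside 0.57% of all genes.

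The difference between the responses, cKO over flox minus labelled siJmjd4 over siNC, was tested by edgeR in a joint model of the 12 libraries for 13482 genes paired by symbol, of which 1.68% were called, 1.34% with a positive and 0.341% with a negative difference. The systems differ in species, age, tissue against culture and the way Jmjd4 was targeted, and the NRVCs labelled siJmjd4 showed no lower Jmjd4 RNA. Ltbp2 had a difference of 6.20 on the log2 scale (SE 0.84, adjusted p = 0.005085), with log2 fold changes of 6.31 in hearts and 0.10 in NRVCs. Tgfb3 had one of 2.63 (SE 0.44, adjusted p = 0.0135), with 2.44 in hearts and -0.19 in NRVCs. The other 8 genes did not pass, and of them Tgfb1 had the smallest p (2.04, SE 0.57, adjusted p = 0.1055). Without flox replicate 3 and siNC replicate 3, 7 of the 10 were called, beside 12.8% of all genes (7.16% positive and 5.68% negative). In that fit the difference was positive for Tgfb1 (1.13), Tgfb2 (2.03), Tgfb3 (2.21), Ltbp2 (5.71) and Ltbp3 (adjusted p = 0.02163) and negative for Tgfbr3 (-1.26, adjusted p = 0.02669) and Ltbp1 (-1.36, adjusted p = 0.0198). For Tgfbr1 and Tgfbr2 the fitted differences were 0.24 and 0.13 with all libraries, with standard errors of 0.65 and 0.61.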

How the data were processed

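RNA of 12 libraries in 4 groups of 3 was measured by RNA-seq. The authors deposited a table of raw counts for each species, with rows of gene symbols and a column for each library, whose name was matched to the labels. The submitters' processing notes list the tools edgeR 3.20.9, HISAT2 2.1.0 and StringTie 1.3.4 and the builds rn6 and mm10 without saying what each did. No source used here states the annotation, strand setting or counting rules.

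Genes were filtered with filterByExpr and scaled by TMM, and a robust quasi-likelihood model with group as the only term was fitted to each system's 6 libraries (edgeR 4.0.16, R 4.3.3). Calls required a two-sided p below 0.05 after Benjamini-Hochberg adjustment across every tested gene. Standard errors come from the F statistic. CPM use TMM-scaled library sizes. An exact permutation test of 3 against 3 cannot go below 0.1 and was not used. The difference between systems came from 1 model of 12 libraries. Lengths are medians of basic coding transcripts in GENCODE M21 (GRCm38, the assembly of mm10), known for 80% of tested mouse genes and, by mouse symbol, 83.9% of rat genes. DESeq2 1.42.0 and limma 3.58.1 served for alternatives, with a length trend fitted by a smooth of span 0.3. The code was tested on simulated data.

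The 10 genes, the lists and the tests were chosen with earlier results of these data known. The rule for named genes took the 10, Jmjd4, from each list the up to 4 genes with the smallest p in hearts and up to 2 in NRVCs, and the 3 genes most like each called gene with a mean of at least 1 CPM and no predicted or clone name, on log2 CPM plus 0.5. Genes named besides because they were called without a control library were chosen after their values were seen. Every pair of replicates differed by more than counting error allows (chi-square divided by its degrees of freedom, 26.1 to 1580), so all were kept.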

Additional observations from a re-analysis of the deposited data

Results flagged for a closer look

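Ltbp2 and Tgfb3 differed between the 2 systems by a test of the difference itself. Jmjd4 averaged 3.511 CPM in NRVCs labelled siJmjd4 and 2.949 CPM in siNC, with overlap. The siNC mean was lowered by siNC replicate 3, at 0.982 CPM. The log2 fold change was 0.25 with all libraries (edgeR adjusted p = 0.7698). Without siNC replicate 3 it was -0.16 (adjusted p = 0.6852), again with overlap. These counts therefore do not show a knockdown in the NRVCs, and a response to one there is not shown. The log2 difference, cKO over flox minus labelled siJmjd4 over siNC, was 6.20 for Ltbp2 (edgeR adjusted p = 0.005085), with every cKO library above every flox library and overlapping NRVC groups. It was 2.63 for Tgfb3 (edgeR adjusted p = 0.0135), with the same pattern, but was not called when any one library labelled siJmjd4 was left out (adjusted p = 0.05727 to 0.06089). With the replicate block neither difference was called.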

How the results depend on the processing

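In the hearts 2 of the 10 genes were called. This count was 4 with DESeq2's Wald test, 4 with the length trend removed (9.27% of all genes), 9 with voom and sample quality weights (21.3% of all genes), 0 with scaling to total counts alone, which moved the median of all genes to 0.54, and 0 with the replicate block. It was 0 to 4 with single libraries left out (0 without any but flox replicate 3), 10 without flox replicate 3 and cKO replicate 2 (19.1% of all genes), and 9 with the length trend removed and flox replicate 3 left out (18.1% of all genes), a setting chosen after seeing the data. No direction changed. In the NRVCs the count of 0 became 1 with voom (3.94% of all genes), 0 to 1 with single libraries left out and 5 without siNC replicate 3 and siJmjd4 replicate 1 (15.8% of all genes). For the difference between systems, the count of 2 became 5 with DESeq2 (7.78% of all genes) and 4 with the length trend removed (6.84%). It was 8 with voom (25.5% of all genes) and 0 with the replicate block. With single libraries left out it was 1 to 5 (0.424% to 6.57% of all genes). It was 1 without any one library labelled siJmjd4 (0.424% to 0.505%), when Tgfb3 was lost. Without flox replicate 3 and siNC replicate 3 it was 7 (12.8% of all genes), and 9 with the length trend removed as well (17.9% of all genes). Fewer libraries enter the fits that leave some out, and otherwise the cause was not tested.

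Directions turned for small NRVC values. With the length trend removed, Tgfbr3 was at -0.041 and Ltbp2 at -0.63, or -0.077 and -0.075 with siNC replicate 3 left out as well. Tgfb3 and Ltbp4 were at 0.045 and 0.077 with voom, 0.046 and 0.077 without siNC replicate 3, and 0.052 and 0.041 without that and siJmjd4 replicate 1, and Ltbp4 at 0.056 with scaling to total counts alone. With single libraries left out, Tgfb3 ranged between -0.30 and 0.046 and Ltbp4 between -0.13 and 0.077. The difference for Tgfbr1 was -0.13 without flox replicate 3, and for Tgfbr2 -0.16 without flox replicate 3, -0.12 without siNC replicate 1 and -0.10 without siNC replicate 2. With single libraries left out these differences ranged between -0.13 and 0.55 for Tgfbr1 and between -0.16 and 0.50 for Tgfbr2.

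The labels only number the replicates, and whether the numbers pair the samples is not known. Same-numbered heart libraries deviated from their group means with correlations of 0.334, -0.448 and -0.31, and other-numbered ones with -0.441 to 0.53. In the NRVCs these were -0.141, -0.0185 and -0.15 for the same number and -0.103 to 0.163 for other numbers. With 3 libraries a group, some of which stood apart, such correlations can neither show nor exclude pairing. Over all genes edgeR called 92 in hearts, 0 to 1373 with single libraries left out, 1748 with DESeq2, 1343 with the length trend removed and 0 with the block, and 1 in NRVCs, 0 to 90 with single libraries left out and 168 with DESeq2.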

Other observations

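Itgb6, from the storage and activation list, and Acta2, from the target list, lay lower in every cKO heart library than in any flox library. They were chosen after their values were seen, as 11.2% of all tested genes lay so. Itgb6, the beta subunit of an epithelial integrin that activates latent TGF-beta, was at 2.393 ± 2.819 CPM in cKO and 15.44 ± 2.206 CPM in flox hearts (SD, n = 3, log2 fold change -2.69, edgeR adjusted p = 0.21). Acta2, the smooth muscle actin that marks myofibroblasts as well as vessels, was at 131 ± 42.35 CPM in cKO and 322.2 ± 95.78 CPM in flox hearts (-1.30, adjusted p = 0.2205). Neither passed the test with all libraries or without flox replicate 3, with adjusted p-values of 0.1014 and 0.09964 there. In contrast to Acta2, the smooth muscle marker Cnn1 was called higher in cKO hearts, at 14.56 ± 0.3686 CPM against 1.574 ± 0.6793 CPM in flox hearts (3.22, edgeR adjusted p = 0.03872).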
